A study of Drosophila melanogaster with 24 samples.

Results

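Heads of male lol flies were compared with whole bodies of male lol flies. The comparison rests on 6 of the 24 arrays of the study, 3 of heads and 3 of whole bodies, and on all 13873 transcripts with a value on every array. lol is the mutant strain of the study, and the title gives Lobe-less as a noncoding RNA with a role in how the mushroom body takes shape. The labels name the genotype lol and no allele. The arrays used for contrast are those of male w1118 flies, the white-eyed control strain (3 heads, 3 bodies), and of female lol flies (3 heads, 3 bodies). Arrays of w1118 females (3 heads, 3 bodies) were used to define male-biased body transcripts and for single values. All flies were raised at 23 °C and frozen at day 2 of adult life. Heads were parted from frozen bodies by sieving, and each RNA extract pooled 100 heads or 100 bodies, so no array shows a single fly. The labels describe the 3 arrays of a group as separate cultures.

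The adult fly head is built around the brain and the compound eyes, with antennae, mouthparts, some muscle and a fat body of its own. The mushroom body, a paired centre of olfactory learning, is a small part of that brain. A whole body contains the head as well, together with thoracic flight muscle, gut, abdominal fat body and, in males, testes and accessory glands, which express many transcripts that few other tissues use. In such bulk RNA a lower value can mean fewer cells of a type or less RNA per cell, and these cannot be told apart. The tissue labels could not be set against defining genes, because no gene of the 14 tissue lists prepared for this (photoreceptor, neuron, glia, olfactory, testis, accessory gland, muscle, gut and others) could be matched to a transcript of its own.

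All values are log2 expression values as the authors deposited them, so a difference of 1 is a doubling. The 3 body arrays correlated at 0.983 to 0.99 across transcripts. Head arrays 2 and 3 correlated at 0.986, but head array 1 correlated with them at only 0.933 and 0.941. Head array 1 also stood nearer to the bodies, at 0.806 to 0.819 with the body arrays, where head arrays 2 and 3 lay between 0.65 and 0.677. Head array 1 thus stands apart from the other lol male heads, and the counts and values it moves most are given with and without it. It held raised levels of transcripts that w1118 males have in bodies rather than heads, described below with their values. The median SD between replicates was 0.227 in lol male heads, 0.17 for head arrays 2 and 3 alone, and 0.183 in lol male bodies.

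Heads and bodies of lol males differed in most of the measured transcripts. Of 13873 transcripts, 8769 passed an adjusted p of 0.05 (limma, Benjamini-Hochberg), which is 63.2%. Of these, 5513 (39.7%) were higher in heads and 3256 (23.5%) were lower in heads. The direction of the balance depended on the size of the difference. At 1 log2 or more, 2468 (17.8%) were higher and 2416 (17.4%) lower in heads, and at 2 log2 or more, 671 (4.84%) were higher and 1824 (13.1%) lower. A deficit of 4 log2 or more in heads was measured for 756 transcripts. The most positive difference of any called transcript was 3.57 and the most negative was -6.40. The median difference over all transcripts was 0.25. Without head array 1 the calls were 8712 (62.8%), with 5588 (40.3%) higher and 3124 (22.5%) lower. At 2 log2 or more they were 738 higher and 1843 lower, and 987 were lower by 4 log2 or more. The balance also moved with the processing. At 1 log2 or more, quantile normalization applied again gave 3103 higher and 2265 lower, and dropping the 25% of transcripts with the lowest means left 1980 higher and 1226 lower. At 2 log2 or more, that filter left 580 higher and 877 lower.

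**Figure D1:**
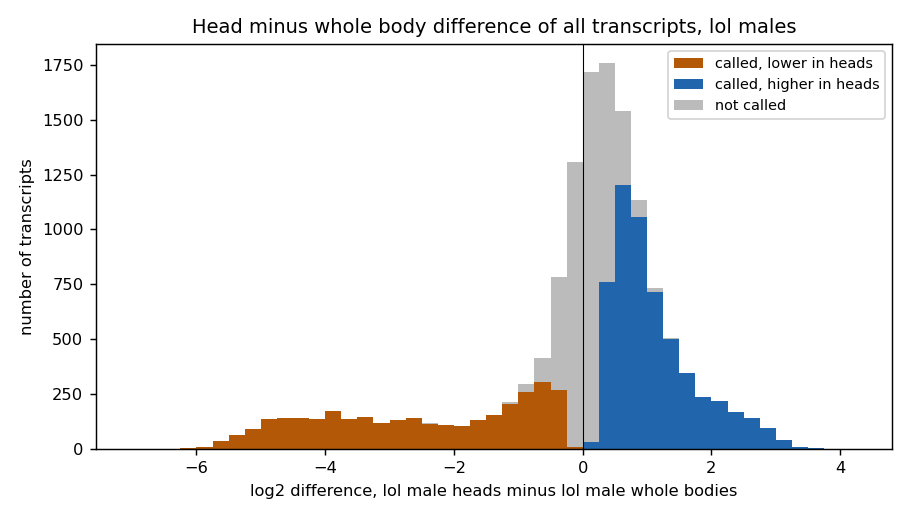
Number of transcripts (y axis) by the log2 difference of lol male heads minus lol male whole bodies (x axis, bins of equal width), with called transcripts coloured by direction and the others in grey. The 5513 transcripts called higher in heads form a peak that ends at 3.57, and the 3256 called lower in heads form a long flat tail that reaches -6.40.

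The transcripts lower in heads by 2 log2 or more were abundant in male bodies and near the bottom of the scale in heads. Their median level was 12.96 in lol male bodies and 9.0 in lol male heads. On the single head arrays it was 10.02 on array 1, 8.44 on array 2 and 8.46 on array 3. The 671 transcripts higher in heads by as much had a median of 12.43 in heads and 9.89 in bodies, and their 3 head arrays stood at 12.36, 12.36 and 12.65. Head array 1 therefore departed from the other heads in the body-rich transcripts and hardly in the head-rich ones. These levels describe transcripts chosen by the difference itself. When transcripts were split into 4 groups of nearly equal size by their mean over all 24 arrays, 37% of the group with the lowest means were lower in heads and 22.5% higher. In the third of these groups 14.6% were lower and 51.9% higher. Of the 703 transcripts with a mean over 15, close to the highest value in the table, 205 were called. This is a smaller share than the 8769 (63.2%) called of all 13873 transcripts. The largest difference among the 703 was 1.37.

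By ID, the strongest head excess was that of FBtr0088503, with 12.39, 11.85 and 12.79 on the head arrays and 8.59, 8.78 and 8.95 on the body arrays. The difference was 3.57 ± 0.35 (SE) log2, or 11.9-fold (adjusted p = 6.18e-08, limma). FBtr0071134 stood at 12.45, 12.10 and 12.30 in heads and at 8.41, 8.86 and 8.89 in bodies, a difference of 3.56 ± 0.21. All 3 heads were above all 3 bodies for both transcripts. The rule that picked the IDs of this paragraph required all heads on 1 side of all bodies, so this separation was fixed by the choice. FBtr0085944 had the deepest deficit, with 11.74, 7.15 and 7.02 in heads against 15.34, 14.81 and 14.95 in bodies. Its difference was -6.40 ± 1.03 log2 (adjusted p = 2.47e-05, limma), and -7.95 without head array 1. The SD of its 3 heads was 2.69, and with the compared arrays alone the adjusted p was 0.0046 (limma). FBtr0089741 showed the same layout, at 12.39, 7.35 and 7.63 in heads and 15.42, 15.13 and 15.44 in bodies, with a difference of -6.21 ± 1.00 and -7.84 without head array 1. On head array 1 both lay more than 4 log2 above the other heads and still about 3 log2 below the bodies. The files pair none of these 4 IDs with a gene.

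The reference gene table pairs 16 measured transcripts with a single gene each, and these are the named transcripts below. In lol males 9 of the 16 were higher in heads, 2 were lower and 5 did not pass, with a median difference of 0.51. The background was 39.7% higher and 23.5% lower with a median of 0.25, so a share of 68.8% called lies near the 63.2% of all transcripts. The same 9, 2 and 5 transcripts held without head array 1. The 16 form no pathway and stand for no tissue. Heads and bodies without overlap were common. Of all 13873 transcripts, 5866 had every head above every body and 3474 every head below. Such separation of a named transcript below therefore does not mark it out.

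**Figure D2:**
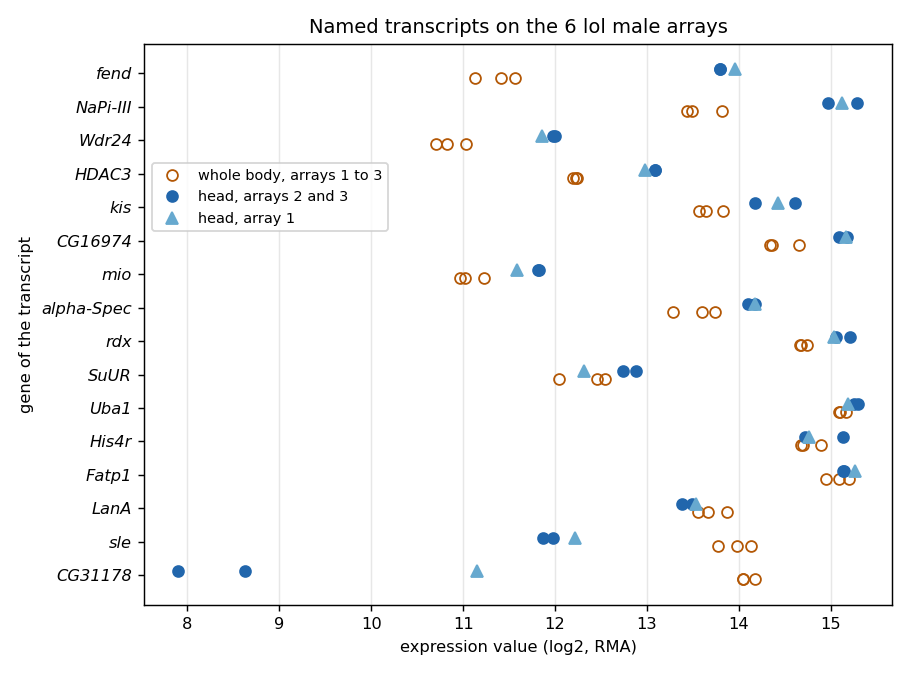
Expression values (x axis, log2) of the 16 transcripts paired with 1 gene (y axis, ordered by difference) on each of the 6 lol male arrays, with open circles for bodies, filled circles for head arrays 2 and 3 and triangles for head array 1. fend shows the widest gap with heads above bodies, at 13.80 to 13.95 against 11.13 to 11.57, and CG31178 the widest with heads below bodies, where head array 1 lies between the other heads and the bodies.

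Of the genes of neural development, fend (forked end), a membrane protein known from motor axon guidance, had the largest head excess of the 16. Its heads stood at 13.95, 13.80 and 13.80 and its bodies at 11.13, 11.41 and 11.57. Heads and bodies were far apart on every array, by 2.48 ± 0.16 (SE) log2 or 5.58-fold (adjusted p = 5.48e-10, limma). The value was 2.43 without head array 1. The transcript of sle (slender lobes), a nucleolar protein found through its role in mushroom body growth, went the other way. It stood at 12.22, 11.86 and 11.97 in heads and 13.77, 13.97 and 14.14 in bodies, 3.84-fold lower in heads (-1.94 ± 0.18, adjusted p = 2.83e-08, limma). No head array reached the lowest body array. sle was lower in heads of all 4 strain and sex groups, at -1.41 in w1118 males, -1.25 in lol females and -1.47 in w1118 females.

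Of the membrane transporters, NaPi-III, a phosphate transporter, stood at 15.13, 14.96 and 15.28 in heads and 13.49, 13.82 and 13.44 in bodies. The 2 sets of arrays did not overlap, and heads were 2.91-fold higher (1.54 ± 0.15, adjusted p = 5.16e-08, limma). Fatp1, a fatty acid transport protein, stood at 15.26, 15.15 and 15.13 in heads and 14.95, 15.09 and 15.20 in bodies. These overlapped, and the difference of 0.10 did not pass (adjusted p = 0.422, limma).

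Chromatin genes were split. HDAC3, a histone deacetylase, stood at 12.97, 13.09 and 13.08 in heads and 12.23, 12.20 and 12.24 in bodies, with little spread within either tissue. Heads were higher by 0.83 ± 0.10 log2 (adjusted p = 1.46e-06, limma). kis (kismet), a chromatin remodeller of the trithorax group, was higher in heads by 0.73 (adjusted p = 0.000207, limma), with heads from 14.18 to 14.62 and bodies from 13.57 to 13.83. SuUR, which restrains replication of heterochromatin, did not pass, at 12.32, 12.88 and 12.74 in heads against 12.05, 12.46 and 12.55 in bodies (0.29, adjusted p = 0.194, limma). Without head array 1 its difference was 0.46 (adjusted p = 0.0599, limma). His4r, a histone H4 made outside S phase, had a difference of 0.11 (adjusted p = 0.397, limma) with overlapping arrays.

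The transcripts of mio and Wdr24 encode subunits of GATOR2, a complex that lets amino acids activate the growth kinase TORC1. mio stood at 11.58, 11.81 and 11.82 in heads and 10.96, 11.02 and 11.23 in bodies, a difference of 0.67 ± 0.14 log2 (adjusted p = 0.000347, limma). Wdr24 had a mean of 11.95 ± 0.0729 (SD, n = 3) in heads, with a lowest array of 11.86, and stood at 10.70, 11.03 and 10.82 in bodies. This is a difference of 1.09 ± 0.19 (adjusted p = 5.3e-05, limma). All heads were above all bodies in both. Of the ubiquitin genes, rdx (roadkill), a substrate adaptor of a Cullin ligase in Hedgehog signalling, was higher in heads by 0.41 (adjusted p = 0.00276, limma). Uba1, the ubiquitin-activating enzyme, was measured at 15.18 to 15.30 in heads and 15.09 to 15.17 in bodies. These arrays did not overlap, yet the difference of 0.13 did not pass (adjusted p = 0.207, limma).

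The structural genes also differed from each other. alpha-Spec, the alpha chain of spectrin in the membrane skeleton, stood at 14.18, 14.10 and 14.18 in heads and 13.74, 13.28 and 13.60 in bodies. Heads were higher by 0.61 ± 0.11 log2 (adjusted p = 9.2e-05, limma). LanA, which encodes an alpha chain of laminin in basement membranes, lay slightly lower in heads on every array, at 13.54, 13.49 and 13.38 against 13.56, 13.87 and 13.67. The difference of -0.23 did not pass (adjusted p = 0.146, limma), though it did with array weights (adjusted p = 0.0235, limma). CG16974 was higher in heads by 0.69 (adjusted p = 4.83e-05, limma), with heads from 15.09 to 15.18 and bodies from 14.34 to 14.66.

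The transcript of CG31178 was the extreme of the 16. It stood at 14.05, 14.17 and 14.05 in bodies, and at 11.15, 7.90 and 8.63 in heads. Bodies were tightly grouped, while head array 1 lay about 3 log2 above the other heads. The difference was -4.86 ± 0.74 log2, 29.1-fold (adjusted p = 1.22e-05, limma), and -5.82 without head array 1. With the compared arrays alone, CG31178 had an adjusted p of 0.00212 (limma). Its mean was 13.56 in w1118 male bodies, but 8.22 in lol female bodies and 8.61 in w1118 female bodies. CG31178 was thus at a high level in male bodies alone among the 8 groups, the w1118 male heads having a mean of 9.83.

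Another 25 measured transcripts are each listed in the reference for 2 genes, with one gene marked as the upstream and the other as the main reading frame of the shared transcript. A value belongs to the transcript and cannot be divided between its genes. Of the 25, 6 were higher in heads of lol males, 1 was lower and 18 did not pass. The 28% called lies below the 63.2% of all transcripts, and the median difference was 0.12 against 0.25. The transcript of Rad1 (a subunit of the checkpoint clamp that marks damaged DNA) and Sws1 stood at 11.01, 11.35 and 11.19 in heads and 9.01, 9.57 and 9.46 in bodies. No body array came near the heads, and the difference was 1.83 ± 0.22 log2 (adjusted p = 7.1e-07, limma). The transcript of moi (modigliani), which caps telomeres, and Tgs1, which trimethylates RNA caps, was higher by 1.40 (adjusted p = 1.51e-05, limma). That of CG17325 and CG42305 was higher by 0.91, and that of CG45088 and CG6191 by 0.52. The transcript of lmgB and lmgA, the latter a subunit of the anaphase-promoting complex, was higher by 0.31 (adjusted p = 0.046, limma), and that of CG7950 and Rpp14a by 0.39 (adjusted p = 0.0488, limma). Both of these calls were lost without head array 1, with adjusted p of 0.073 and 0.144 (limma). Each was also lost without any 1 of the 3 body arrays, and without head array 2. The lmgA and lmgB call was lost without head array 3 as well.

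The transcript lower in heads was that of Tim10, a chaperone of the mitochondrial intermembrane space, and CG42497. It stood at 14.48, 14.64 and 14.40 in heads and 15.27, 14.75 and 15.06 in bodies, a difference of -0.52 ± 0.15 log2 (adjusted p = 0.00475, limma). Heads and bodies did not overlap. The transcript of ND-MNLL, a subunit of respiratory complex I, and CG45089 also lay lower in heads, at 14.41, 14.67 and 14.40 against 14.92, 14.88 and 14.76, but narrowly did not pass (-0.36, adjusted p = 0.0547, limma). It passed under 5 of the alternatives. The transcript of Mocs2A and Mocs2B, the subunits of molybdopterin synthase, stood at 10.84 on head array 1 and at 12.17 and 11.63 on the other heads. It did not pass with all arrays (0.51, adjusted p = 0.185, limma) but did without head array 1 (0.86, adjusted p = 0.0283, limma) and with array weights (0.72, adjusted p = 0.0142, limma).

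Sets of transcripts defined on other arrays stood in for tissue markers. Each took transcripts with an adjusted p under 0.05 and at least 2 log2, and no lol male array entered the difference that defined it, although the spread per transcript was estimated over all arrays. The 493 transcripts (3.55%) enriched in w1118 male heads had medians of 12.46, 12.47 and 12.74 on the lol male heads and 9.76, 9.92 and 10.03 on the lol male bodies. All 493 were called higher in lol male heads, with a median difference of 2.54 against 0.25 for all transcripts. Of the 1641 (11.8% of all transcripts) enriched in w1118 male bodies, 1628 were lower in lol male heads, 0 were higher and 13 did not pass. Of all transcripts, 39.7% were called higher and 23.5% lower in lol male heads. Their medians were 13.12, 13.09 and 13.04 on the bodies, and 10.13, 8.43 and 8.45 on the heads. The median difference of these 1641 was -3.90, and -4.33 without head array 1.

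**Figure D3:**
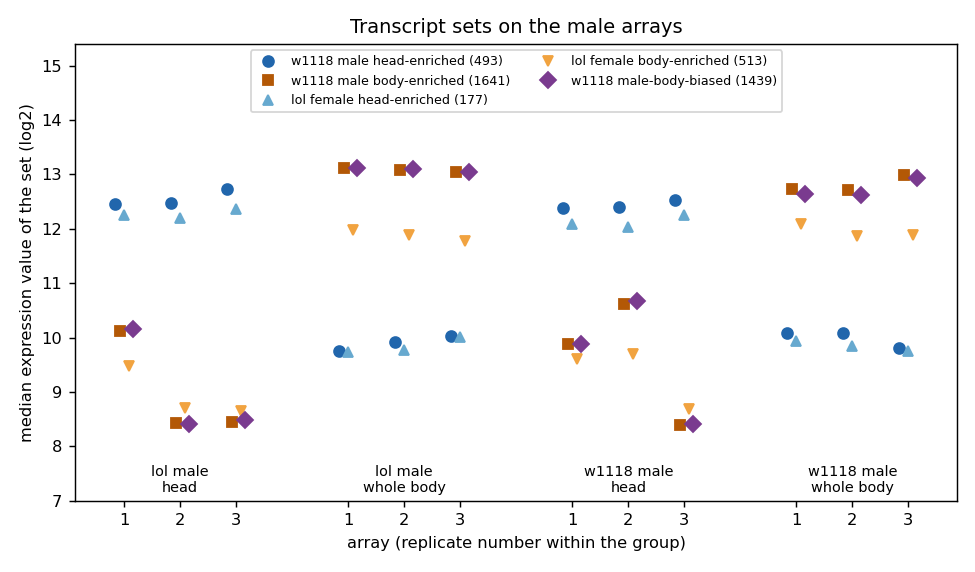
Median expression value (y axis, log2) of 5 transcript sets on each array (x axis, replicate numbers 1 to 3) of lol and w1118 males, with the number of transcripts in brackets. The w1118 male body-enriched and male-body-biased sets stand at 10.13 and 10.16 on lol male head 1. On lol male heads 2 and 3 they stand at 8.40 to 8.48. The lol female body-enriched set stands at 9.49, 8.71 and 8.65 on lol male heads 1, 2 and 3. For all of these body sets, w1118 male heads 1 and 2 stand above head 3.

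Sets defined in lol females separated the tissues as well. The 177 transcripts (1.28%) enriched in lol female heads stood at 12.26, 12.21 and 12.37 on lol male heads and at 9.73, 9.78 and 10.00 on lol male bodies. In lol males 154 of them were higher in heads, 14 lower and 9 not called, where 39.7% of all transcripts were higher and 23.5% lower. The 513 (3.7%) enriched in lol female bodies stood at 9.49, 8.71 and 8.65 on lol male heads and at 11.98, 11.88 and 11.77 on bodies, with 470 lower in heads and 2 higher. Head array 1 was therefore raised for body transcripts defined in females as well. A further set held the 1439 transcripts (10.4%) that were higher in bodies of w1118 males than of w1118 females. On these, head array 1 stood at 10.16 and heads 2 and 3 at 8.40 and 8.48. For a single transcript of this male-body-biased set, head array 1 lay a median 0.309 of the way from the other heads to the bodies on the log2 scale. The same position was 0.222 for the body set of lol females and 0.0502 for the head set of w1118 males. What led to these levels on head array 1 was not tested.

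The head to body difference of lol males was then compared with that of w1118 males, which shares no arrays with it. In w1118 males 7640 transcripts were called (55.1%), 4384 higher in heads (31.6%) and 3256 lower (23.5%). Across 13873 transcripts, which share platform and processing and are not independent, the log2 differences correlated at 0.965. Of the 671 transcripts higher in lol male heads by 2 log2 or more, 444 met the same rule in w1118 males, 66.2% of the lol list and 90.1% of the w1118 list of 493. Of the 1824 lower in heads, 1569 were shared, 86% of the lol list and 95.6% of the 1641 in w1118. Only 10 transcripts were called in opposite directions in the strains, 6 of them higher in lol male heads. With all arrays, differences were wider in lol, with an SD over transcripts of 1.67 against 1.33. In w1118 male heads, arrays 1 and 2 were raised for body transcripts, with medians of 9.89 and 10.62 for the body-enriched set against 8.40 on array 3. The median difference of this set, defined on w1118 males, was -3.90 in lol males and -3.04 in w1118 males. It was -4.33 and -4.09 with 4 head arrays left out (lol male 1, w1118 male 1 and 2, lol female 1). This leaves 1 w1118 male head. What made the differences wider in lol was not tested.

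A test of the difference between the strains called 60 transcripts (0.432%), 34 more positive (0.245%) and 26 more negative (0.187%) in lol males, and 1218 had an unadjusted p under 0.05 (limma). None of the 16 named transcripts and none of the 25 shared ones passed, with adjusted p of 0.495 or more. Over the alternatives, their lowest adjusted p were those of CG31178 (0.0522) and sle (0.0618), both from limma. The count was 118 without lol male head array 1 and 45 without the 4 head arrays that stood high for body transcripts (lol male 1, w1118 male 1 and 2, lol female 1). Of these 45, 25 were among the 60. This leaves a single w1118 male head, which the test assumes to vary like the other groups, so the 45 rest on 1 array in that group. The body-enriched set of lol females, whose difference used no male array, had a median difference of -2.66 in lol males and -2.35 in w1118 males. The value for lol males was -2.78 without lol male head array 1. Without the 4 head arrays the medians were -2.78 in lol males and -2.85 in w1118 males, with a single w1118 male head left. The head-enriched set of lol females stood at 2.67 in lol males and 2.53 in w1118 males. Without the 4 head arrays it stood at 2.73 and 2.69.

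Of the 60 transcripts, 25 were called in both strains in the same direction, 7 in opposite directions, 19 in lol males alone and 9 in w1118 males alone. FBtr0078518 had opposite directions. It stood at 9.58, 9.74 and 9.23 in lol male heads and 11.68, 11.78 and 11.23 in lol male bodies, a difference of -2.05 log2. In w1118 males it stood at 15.12, 14.97 and 15.10 in heads and 13.92, 13.82 and 13.93 in bodies, higher in heads by 1.17. FBtr0082659 was likewise lower in lol male heads (7.96, 8.05 and 7.49) than in lol male bodies (9.62, 10.19 and 10.51), a difference of -2.27 against 0.84 in w1118 males. The strain differences of these transcripts were -3.22 ± 0.31 (SE) and -3.11 ± 0.38 log2. FBtr0076388 and FBtr0089323 lay near the bottom of the scale on every lol male array, at 7.30 to 8.11 and 7.11 to 7.74. In w1118 males the difference was -3.08 for FBtr0076388 and -3.15 for FBtr0089323. Their w1118 male bodies stood at 10.44 to 11.09 and at 11.44 to 12.02, far above the lol male bodies. Lower levels in lol than in w1118 were also measured in female bodies. Their means were 7.73 against 12.52 for FBtr0089323 and 8.92 against 13.56 for FBtr0078518. For FBtr0076388 they were 9.64 against 11.40, and for FBtr0082659 they were 11.77 against 12.35. In males, all 4 strain differences were called without lol male head array 1 too, with adjusted p of 0.000599 or less (limma).

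**Figure D4:**
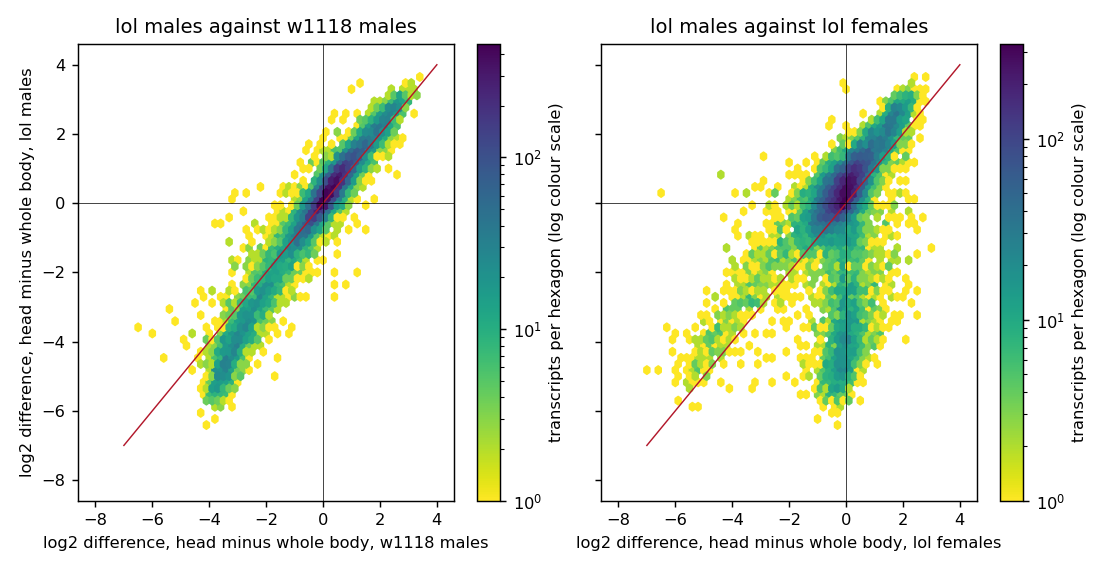
Log2 difference of heads minus whole bodies in lol males (y axis) against that in w1118 males (left panel) and in lol females (right panel, x axes), as the number of transcripts per hexagon on a log colour scale, with the line of equality in red. The left panel shows a single band (correlation 0.965), and the right panel shows a band near the line and a vertical arm in which lol males reach -6.40 at lol female differences near 0 (correlation 0.489).

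Against lol females, which also share no arrays with lol males, the head to body difference departed far more. The test of this difference called 5325 transcripts (38.4%), 3340 (24.1%) more positive and 1985 (14.3%) more negative in lol males (limma). At 2 log2 or more, 1497 (10.8%) were more negative and 69 (0.497%) more positive. In lol females 5166 transcripts were called between heads and bodies (37.2%), 2643 higher (19.1%) and 2523 lower in heads (18.2%). Across transcripts the correlation with lol females was 0.489. The transcripts lower in lol male heads by 2 log2 or more fell into distinct parts. Of the 1824, 1359 (74.5%) were not called between heads and bodies of lol females, 381 (20.9%) were lower in female heads too, and 84 (4.61%) were higher in female heads.

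The 1359 transcripts were high in male bodies and near the bottom of the scale in heads and bodies of females. Their median level was 13.03 in lol male bodies and 12.64 in w1118 male bodies, against 8.41 in lol female bodies and 8.32 in lol female heads. In lol male heads they stood at 10.00 on array 1 and at 8.30 and 8.36 on arrays 2 and 3, and their median was 9.54 in w1118 male heads. The rule of male bias in w1118 bodies, whose difference used none of the 12 lol arrays, was met by 1261 of them (92.8%). It was met by 1355 (74.3%) of the 1824 and by 10.4% of all transcripts. The 1359 were chosen for a deficit in lol male heads without a call in lol females, and this choice favours transcripts with a male body bias. The CG31178 transcript described above belongs here, with -0.04 in lol females and a difference between the sexes of -4.82 ± 1.04 (SE) log2 (adjusted p = 0.00144, limma), or -5.78 without head array 1. The 381 transcripts lower in heads of both sexes were high in bodies of both, at 12.64 in lol males and 13.13 in lol females, and 13 of them (3.41%) met the male bias rule. The 84 had medians of 10.18 in lol female heads and 8.98 in lol female bodies, and 13.30 in lol male bodies. Without head array 1 the parts held 1357, 396 and 90 transcripts.

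Head excess of lol males was mostly called in lol females too, though mostly not at the size limit used in males. Of the 671 transcripts higher in lol male heads by 2 log2 or more, 652 (97.2%) were also called higher in lol female heads at any size and 1 was lower there. Of all transcripts, 19.1% were called higher in lol female heads. Only 134 of the 671 (20%) reached 2 log2 in lol females. The median difference of the 652 was 2.44 in males and 1.70 in females. Levels of the 652 lay close together in heads, at a median of 12.46 in lol males and 12.51 in lol females. In bodies they stood at 9.93 in males and 10.85 in females. The members were chosen by their value in males, which can enlarge the male side.

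Of the 16 named transcripts, 6 had a more positive head to body difference in lol males than in lol females, 2 a more negative one and 8 did not pass, 50% called against the 38.4% of all transcripts. The sex difference of HDAC3 was 0.96 ± 0.15 (SE) log2 (adjusted p = 6.71e-05, limma). HDAC3 levels were close in heads, at 13.05 in males and 12.93 in females, and apart in bodies, at 12.22 in males and 13.06 in females. The GATOR2 subunits had the same layout. Means of mio were 11.74 and 11.83 in male and female heads and 11.07 and 11.92 in bodies, a sex difference of 0.76 ± 0.20 (adjusted p = 0.00532, limma). Means of Wdr24 were 11.95 and 11.99 in heads and 10.85 and 11.88 in bodies, a sex difference of 0.99 ± 0.27 (adjusted p = 0.00742, limma). Neither mio (-0.09) nor Wdr24 (0.11) was called between heads and bodies of lol females.

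fend was higher in heads of both sexes, by 2.48 in males and 1.59 in females, and the sex difference of 0.89 ± 0.23 (SE) passed (adjusted p = 0.00545, limma). LanA was lower in lol female heads by 0.98 log2 (adjusted p = 9.88e-06, limma) and differed by -0.23 in males, a sex difference of 0.75 ± 0.19 (adjusted p = 0.00499, limma). Its lol means were 13.47 and 13.48 in male and female heads, and 13.70 and 14.46 in bodies. alpha-Spec (0.42, adjusted p = 0.0402) and sle (-0.70, adjusted p = 0.0357) passed by limma, but each call was lost in many alternatives. That of alpha-Spec was lost under 9 of 20 alternatives, including the loss of lol male head 1 or 3, lol male body 2, lol female head 2 or 3, or lol female body 1 or 3. That of sle was lost under 8 of 20, without lol male head 2 or 3, lol male body 2 or 3, lol female head 1 or 2, or lol female body 1 or 3. Of the transcripts shared by 2 genes, 6 of 25 were more positive and 1 more negative in males, 28% called against the 38.4% of all transcripts. The largest was that of Rad1 and Sws1, at 1.87 ± 0.31 (adjusted p = 0.000128, limma), with means of 11.18 and 11.23 in male and female heads and 9.35 and 11.27 in bodies.

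By ID, the most positive sex differences were those of FBtr0077804 (6.77 ± 0.52, adjusted p = 7.73e-08, limma) and FBtr0080350 (5.28 ± 0.68). FBtr0077804 stood at 7.48, 8.74 and 7.45 in lol male heads and 7.85, 7.40 and 7.69 in lol male bodies, near the bottom of the scale throughout. In lol females it stood at 8.99, 7.54 and 8.31 in heads and 14.92, 14.74 and 14.77 in bodies, and only the female bodies were high. FBtr0080350 was also highest in lol female bodies, at 13.94 to 14.17, against 7.81 to 7.92 in lol male bodies. Its heads varied more, at 7.76, 9.97 and 8.61 in lol males and 10.56, 8.77 and 9.74 in lol females. Between lol male heads and bodies it did not pass with all arrays (0.92, adjusted p = 0.104, limma). It passed without head array 1 (1.43, adjusted p = 0.0144, limma). The most negative were FBtr0100645 (-6.27 ± 1.81, adjusted p = 0.0109, limma) and FBtr0085944 (-6.0 ± 1.46, adjusted p = 0.00354, limma). Both had means of 14.53 or more in male bodies of each strain and of 9.50 or less in every female group. FBtr0100645 stood at 15.15, 15.23 and 15.16 in lol male bodies and at 13.27, 7.68 and 7.37 in lol male heads, where array 1 was again the high one. Without head array 1 the sex difference was -8.18 for FBtr0100645 and -7.55 for FBtr0085944.

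Calls in the 4 head to body comparisons were also counted together. Higher levels in heads were called for 1950 transcripts in both sexes of both strains, and lower levels for 969. In w1118 females alone 5321 were called (38.4%), 2727 higher (19.7%) and 2594 lower (18.7%). In lol males 1257 transcripts were called higher in heads that were not called so in any other group, with a median difference of 0.60, and 162 were called lower, with a median of -0.76. Whether these differ from the other groups is the subject of the tests of difference above, and a missing call elsewhere does not show it.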

How the data were processed

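Expression was measured on 24 one-colour (Cy3) NimbleGen arrays with 8 probes per transcript, per the labels. The authors deposited log2 values per transcript made with RMA, per the submitters' processing notes, which corrects background, quantile normalizes arrays and summarises probes. Quantile normalization is meant to give all arrays the same distribution, so differences are relative within an array. The deposited transcript values still differed in distribution between arrays. Quantile normalization applied to them again moved the lol male counts at 1 log2 or more. They went from 2468 higher and 2416 lower in heads to 3103 and 2265. Which arrays were normalized together is not given in the sources used here. Of 15595 listed transcripts, the 1722 without values were not tested. For arrays, the number of samples limits the precision.

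A limma model (3.58.1, R 4.3.3) with 1 mean per group was fitted to 24 arrays, and p-values were adjusted (Benjamini-Hochberg) over 13873 transcripts. Tests were tested on simulated data. Errors are SEs from the model, whose spread per transcript is pooled over the 8 groups. They do not measure the spread within a single group, such as lol male heads. The reference (Release 6) lists 43 measured IDs, 16 for 1 gene, 25 for 2 and 2 for more. By rule, the 16 and 25 are named, plus the 2 most positive and 2 most negative called IDs per comparison. For lol male heads against bodies, these IDs also needed at least 1 log2 and all heads on 1 side of all bodies. Members, lists and sets were chosen with earlier results of these data known. No gene of the 14 tissue lists was matched singly, and the mitochondrial list held 1 shared transcript (ND-MNLL). Replicate numbers were not used to pair the arrays in the main fit. Alternatives left out arrays, filtered, rescaled, weighted or blocked them.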

Additional observations from a re-analysis of the deposited data

Results flagged for a closer look

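The results below differed between groups by a test of the difference itself (limma, adjusted p under 0.05), in the order of the contrast. Between lol and w1118 males, 60 transcripts differed in their head to body difference, among them FBtr0076388 (3.36), FBtr0089323 (3.26), FBtr0078518 (-3.22) and FBtr0082659 (-3.11). Between lol males and lol females, 5325 transcripts differed. The named ones were Wdr24 (0.99), HDAC3 (0.96), fend (0.89), mio (0.76), LanA (0.75), alpha-Spec (0.42), sle (-0.70) and CG31178 (-4.82). The transcripts shared by 2 genes were those of Rad1 and Sws1 (1.87), Polr3K and Tcs1 (1.08), Tgs1 and moi (1.01), CG7950 and Rpp14a (0.76), CG42488 and CG5116 (0.64), CG42516 and Pbp49 (0.42), and CG42306 and Gint3 (-0.41). The last of these lost its call under 12 of 20 alternatives, with every single lol array left out except lol male head 2 and lol female body 3, that of CG42516 and Pbp49 under 7, and that of CG7950 and Rpp14a without lol female head 2. Some named transcripts that were not called with all arrays were called under alternatives. NaPi-III (0.51) was called under 6 of 20, among them without lol female body 1, lol male body 2 or lol male head 2. SuUR (0.54) was called without lol male head 1, CG16974 (0.34) without lol male body 3 and kis (0.38) with array weights. Of the transcripts shared by 2 genes, that of CG32573 and CG42512 (1.03) was called under 3, and 3 others under 1 each. The IDs at the ends of this contrast were FBtr0077804 (6.77), FBtr0080350 (5.28), FBtr0100645 (-6.27) and FBtr0085944 (-6.0).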

How the results depend on the processing

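The 16 named transcripts kept direction and call between lol male heads and bodies in 254 of 255 values over the alternatives, LanA with array weights being the exception. Of the 8769 calls, 7818 to 8713 were shared by each alternative that kept all transcripts, none in the opposite direction, and single arrays left out gave 7922 to 8712. Dropping the lowest 25% of transcripts left 4800 higher and 2006 lower in heads. In the main fit, the group of transcripts with the lowest means held 1282 of the 3256 lower calls and 779 of the 5513 higher calls. Size limits of 1 and 2 log2 left 4884 and 2495 calls, 3050 and 1566 in the sex contrast and, at 2 log2, 21 in the strain contrast. The strain contrast of 60 (34 positive, 26 negative) gave 23 (11 and 12) with the compared arrays alone, which are the 12 male arrays, 1763 (712 and 1051) with array weights, 30 (19 and 11) with the lowest 25% dropped, and 22 positive without the 4 head arrays, with 1 w1118 male head left. Leaving out single arrays gave 29 to 118 (15 to 52 positive, 14 to 66 negative). It was 32 and 34 without w1118 body 1 and 2, 38, 35 and 39 without lol body 1, 2 and 3, 37 without w1118 head 2, 118 without lol head 1 and 29 without lol head 3. The cause was not tested. The sex contrast of 5325 lay between 4387 and 5276 with single arrays left out and at 915 negative calls with the lowest 25% dropped. Sets defined at 1 log2, which admits smaller differences, had medians of 1.73 (w1118 male heads), 2.00 (lol female heads) and -1.20 (lol female bodies). The replicate number as a block gave 9020, 64 and 5672 calls. Same-numbered lol male heads and bodies deviated together at 0.0588, -0.199 and 0.176. Same-numbered lol and w1118 male heads did so at 0.592, -0.594 and 0.67. With 3 arrays per group, these values cannot show whether such arrays share more than a number.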
